A study of Mus musculus with 9 samples.

Results

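The miR-151 hairpin gives rise to a pair of mature microRNAs, one from each side of its stem, and the array carried 1 probe for each: mmu-miR-151-5p and mmu-miR-151-3p. These are 2 of the 1027 probes named as mouse microRNAs (miRNAs), found by their names in the deposited intensity table, and both were among the 462 mouse probes bright enough to be tested. The arms were chosen by their values in these same arrays, miR-151-5p for its difference after 1 day of formaldehyde and miR-151-3p for its difference after 7 days. Their levels and differences are therefore given as a description, with no test.

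The 9 single-colour arrays held RNA of the olfactory bulb, the first brain relay of smell, from male mice of the outbred ICR strain, aged 8 weeks. The FA 1 day group (n = 3) had been in a chamber with 3 ppm formaldehyde, which irritates the airways, for 6 hours on 1 day, and the FA 7 days group (n = 3) on 7 days in a row. Control mice (n = 3) were housed alike with no formaldehyde. Neither the time of dissection of the controls nor whether each array is a different animal is stated in the labels, so p-values measure only the spread between these arrays, which may be technical.

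A miRNA gene is transcribed as a hairpin, which the enzymes Drosha and Dicer cut into a short duplex. Either strand of that duplex, the 5p arm or the 3p arm, can be loaded into an Argonaute protein, where its seed (bases 2 to 8) guides it to matching messenger RNAs. Both arms leave 1 precursor in equal numbers, and their levels part afterwards through loading and decay. Mir151 lies within the span of Ptk2, which encodes focal adhesion kinase, a kinase of cell adhesion and migration, according to RefSeq (GRCm38.p6). The miR-151 precursor is a known target of the RNA-editing enzyme ADAR1 in brain, where editing hinders its cutting by Dicer.

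Hairpins related to miR-151 are those of miR-28 and miR-708, which like it are thought to derive from LINE-2 repeats. Their mature sequences from RefSeq (GRCm38.p6) were matched for 4 of 4 related arms, where miR-28 is listed as miR-28a. They are shown for the relatives whose values are set beside miR-151 further on, and capitals mark the seed. The sequences at hand held none for the miR-151 arms, so those shown compare miR-28 with miR-708 only. In that build Mir28a lies on chromosome 16 within the span of Lpp, and Mir708 on chromosome 7 within that of Tenm4.
miR-28-5p: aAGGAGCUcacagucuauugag
miR-708-5p: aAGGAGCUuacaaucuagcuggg
miR-28-3p: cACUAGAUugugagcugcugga
miR-708-3p: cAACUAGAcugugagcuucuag
The 5p arms share the seed AGGAGCU and start with the same 8 bases, while the seeds of the 3p arms differ (ACUAGAU and AACUAGA).

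Across the 9 arrays, 398 to 520 mouse probes were detected, at a foreground minus background of at least 30, and the probes detected on every array had a median of 224 to 441. Control replicate 2 and FA 7 days replicate 3 stood apart, deviating from the average of the remaining 7 arrays by a root mean square of 0.913 and 0.682 (log2, over the tested probes), against 0.265 to 0.470 for each of those 7 against the rest of them. The neuronal markers miR-124-3p, miR-9-5p, miR-9-3p and miR-128-3p and the olfactory-lineage markers miR-200a-3p, miR-200b-3p and miR-429-3p were detected on 9 of 9 arrays. Of the 3 muscle markers, miR-206-3p was detected on 0 arrays, miR-1a-3p on 3 and miR-133a-3p on 6. In bulk tissue, fewer cells of a type and less of a miRNA per cell cannot be told apart.

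After 1 day of formaldehyde the 5p arm lay above control and the 3p arm differed from it by less than its error, whereas after 7 days the 3p arm lay above control and the 5p arm differed by less than its error. On the normalized log2 scale miR-151-5p stood at 8.88, 8.98 and 8.88 on control replicates 1, 2 and 3. It stood at 9.65, 9.71 and 9.42 on FA 1 day replicates 1, 2 and 4, and at 9.08, 9.24 and 8.69 on FA 7 days replicates 1, 2 and 3. All 3 FA 1 day arrays were thus above all 6 others, and the FA 7 days arrays ran from below the lowest control to above the highest one. The lowest of them, FA 7 days replicate 3, is one of the arrays that stand apart.

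The group means of miR-151-5p were 8.91 ± 0.06 in control, 9.59 ± 0.15 after 1 day and 9.002 ± 0.280 after 7 days (SD, n = 3 each). The log2 difference from control was 0.68 ± 0.19 (SE from the limma fit) after 1 day, 1.60-fold. After 7 days it was 0.09 ± 0.19, a difference smaller than its error. From 1 day to 7 days the arm differed by -0.59 ± 0.19. The order of the levels was FA 1 day, FA 7 days and control, and the last 2 did not differ beyond their spread.

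The 3p probe gave a dimmer signal, 72 to 162 over background per array, nearer to the detection minimum of 30. miR-151-3p stood at 7.16, 7.01 and 7.17 on control replicates 1, 2 and 3 and at 7.23, 7.32 and 7.13 on FA 1 day replicates 1, 2 and 4. On FA 7 days replicates 1, 2 and 3 it stood at 7.61, 7.69 and 7.52. Here the 3 FA 7 days arrays were above all 6 others, and control and FA 1 day overlapped.

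For miR-151-3p the means were 7.11 ± 0.09 in control, 7.23 ± 0.10 after 1 day and 7.61 ± 0.08 after 7 days (SD, n = 3 each). Its log2 difference from control was 0.49 ± 0.16 (SE) after 7 days, 1.41-fold, and 0.11 ± 0.16 after 1 day. From 1 day to 7 days it differed by 0.38 ± 0.16. The order was FA 7 days, FA 1 day and control, with the last 2 not apart beyond their spread.

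**Figure D1:**
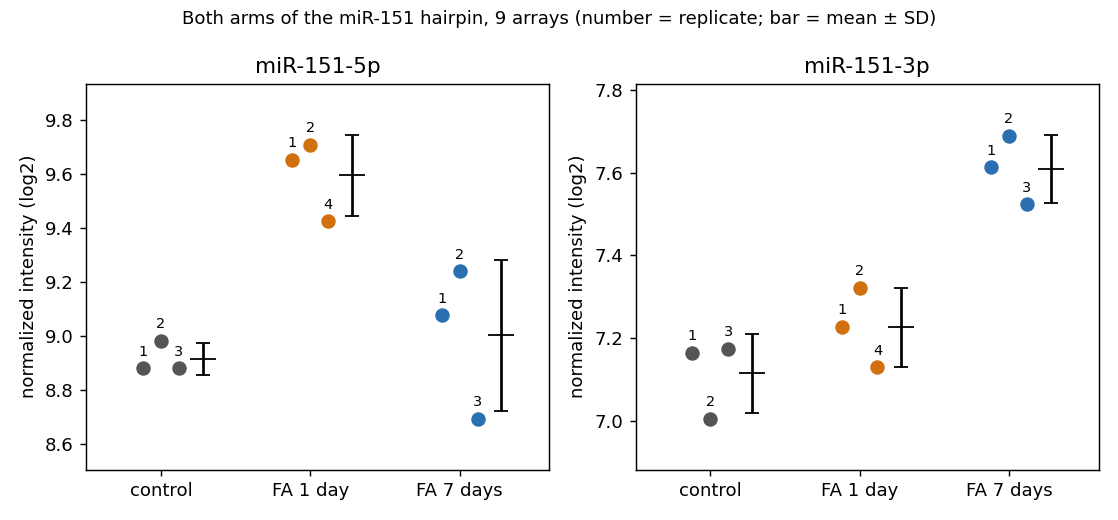
Normalized log2 intensity (vertical axis) of miR-151-5p (left) and miR-151-3p (right) on each of the 9 arrays, by group; numbers are replicates and bars the mean ± SD. The 5p arm is highest on the 3 FA 1 day arrays (9.42 to 9.71) and the 3p arm on the 3 FA 7 days arrays (7.52 to 7.69).

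Over the 462 tested probes, limma with Benjamini-Hochberg adjustment called 0 in FA 1 day versus control (0%), 0 in FA 7 days versus control (0%) and 0 in FA 7 days versus FA 1 day (0%), the arms included. At an unadjusted p under 0.05 these comparisons held 29, 21 and 38 probes. Groups that did not overlap were common: 10.6% of the probes lay higher on all 3 FA 1 day arrays than on all control arrays, as miR-151-5p did, and 8.87% did so on the FA 7 days arrays, as miR-151-3p did. Of FA 7 days against FA 1 day, 8.23% lay lower without overlap, as the 5p arm did, and 11.9% higher, as the 3p arm did. Since those contrasts chose the arms, nothing is read from their place in these shares.

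The log2 difference between the arms within an array, 5p minus 3p, compares probes whose brightness per molecule is unknown, so only its change between groups is used. It was 1.72, 1.98 and 1.71 on control replicates 1, 2 and 3, 2.43, 2.39 and 2.29 on FA 1 day replicates 1, 2 and 4, and 1.46, 1.55 and 1.17 on FA 7 days replicates 1, 2 and 3. The 3 groups did not overlap, with FA 1 day on top and FA 7 days below control. The change was 0.57 ± 0.12 from control to 1 day and -0.41 ± 0.12 from control to 7 days (SE from the plain pooled SD). The SE of each single arm came from the limma fit, which draws on all tested probes, so these errors are not comparable. On the plain scale the pooled SD was 0.19 for miR-151-5p, 0.09 for miR-151-3p and 0.15 for the arm difference. From 1 day to 7 days the arm difference changed by -0.98 ± 0.12. Without both arrays that stand apart, the change from control to 7 days was -0.20.

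To show how far arms move apart elsewhere, the same change was computed for all 98 hairpins with both arms tested. Its median size was 0.32 after 1 day, 0.32 after 7 days and 0.31 between the exposures. By size, miR-151 ranked 16 of 98 after 1 day, 43 of 98 after 7 days and 3 of 98 between the exposures, or 7, 54 and 7 of 98 without both arrays that stand apart. The ranks differed between the sets of print blocks described further on: they were 8, 29 and 3 in blocks 1 to 18 alone and 61, 49 and 24 in blocks 19 to 36 alone. The arm difference separated the groups in the direction seen for miR-151 in 7.14% of the 98 hairpins after 1 day, 7.14% after 7 days and 10.2% between the exposures. It did so in all 3 comparisons, in any direction, in 1.02%, which is miR-151 itself. Since its arms were chosen on these contrasts, nothing is read from this or from the ranks. Arms moving in opposite directions were common as well, in 44.9%, 44.9% and 45.9% of the hairpins. These shares also count hairpins with 1 arm unchanged, such as miR-124, whose 3p arm differed by 0. The arms of miR-151 moved in opposite directions between the exposures, while against control both differences were above 0.

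The widest changes after 1 day were those of miR-291b (-1.44), let-7d (1.24) and miR-592 (1.11). After 7 days they were those of miR-204 (1.70), let-7d (1.41) and miR-136 (1.21), and between the exposures those of miR-434 (1.04), miR-3096 (-1.01) and miR-151 itself. Over the 9 arrays the arms of miR-151 had a Pearson correlation of -0.07 (Spearman 0.09), given as a description. The median over the 97 hairpins whose arms both varied was 0.21, with a range from -0.88 to 0.95, and all points share the arrays and their normalization.

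**Figure D2:**
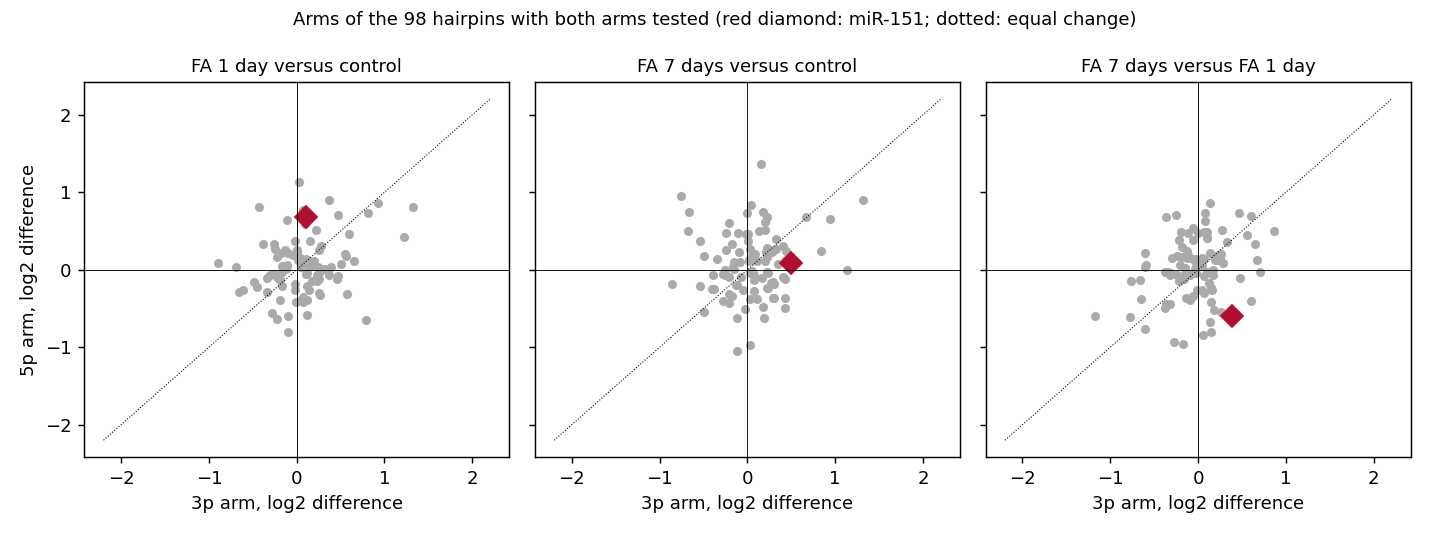
Log2 difference of the 5p arm (vertical) against that of the 3p arm (horizontal) for the 98 hairpins with both arms tested, 1 panel per comparison; the red diamond is miR-151 and the dotted line marks equal change. Between the exposures miR-151, whose arms were chosen by their values in these arrays, lies in the lower right (5p -0.59, 3p 0.38), at the edge of the cloud.

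Each arm was printed as 4 spots per array, a pair in a lower-numbered print block and a pair in a higher-numbered one. The spots of miR-151-5p lay in blocks 2 and 20, those of miR-151-3p in blocks 4 and 22. On several arrays the pairs of miR-151-5p disagreed widely. On FA 1 day replicate 2 the foreground minus background averaged 1026 in block 2 and 412 in block 20. On FA 7 days replicate 1 it averaged 161 and 1178, and on control replicate 3 it averaged 165 and 648.5. Of its spots in block 2, 1 carried no signal on FA 7 days replicate 1 (-9) and 1 on control replicate 3 (0).

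Spots without signal were seen for other probes too. On FA 7 days replicate 1, 42 of the 462 tested probes had such a spot, 15 had one on control replicate 3, and at most 1 on any other array. Without such spots the difference of miR-151-5p after 1 day was 0.54 ± 0.23 (SE). All 50 of these spots on FA 7 days replicate 1 lay in 5 blocks among blocks 1 to 18, and 20 of them in block 2. For miR-151-3p every spot carried signal: its block averages ranged from 56.5 to 140 in block 4 and from 75 to 184.5 in block 22.

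**Figure D3:**
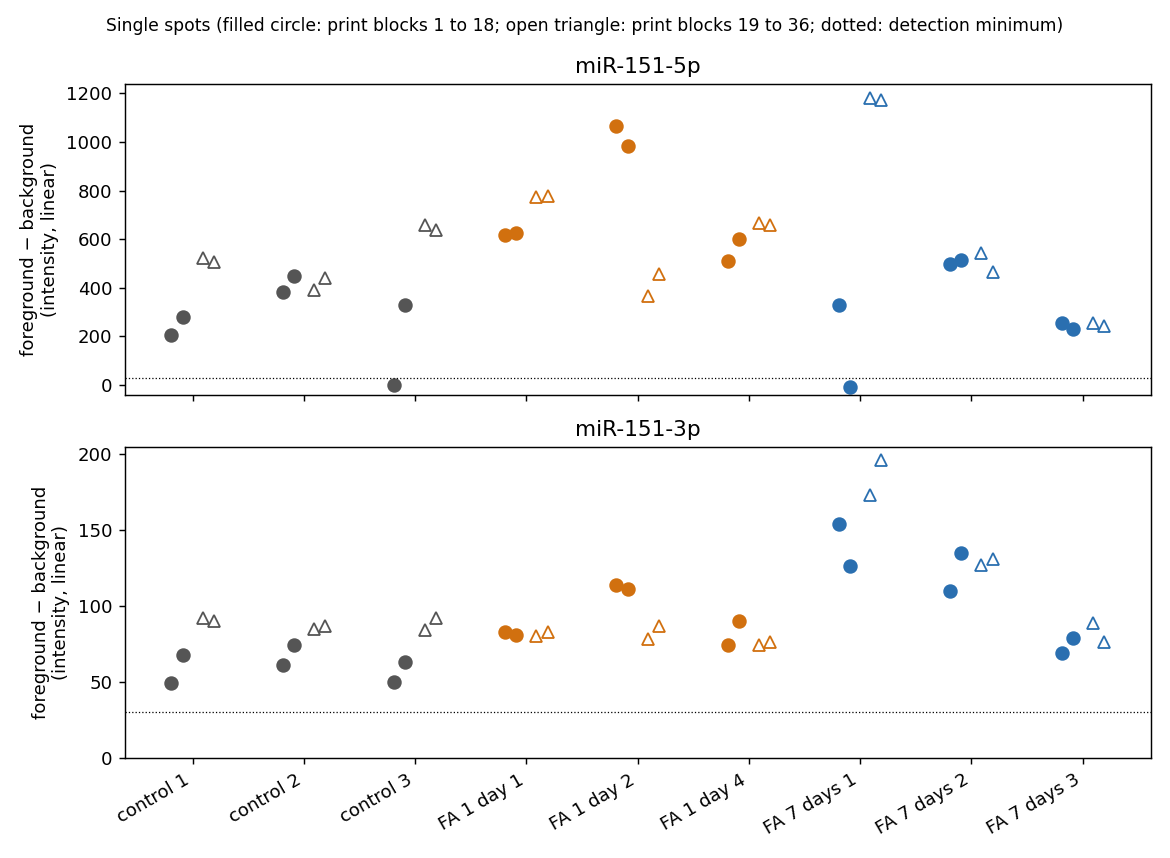
Foreground minus background (linear intensity) of every spot of miR-151-5p (top) and miR-151-3p (bottom) on the 9 arrays; filled circles are spots in blocks 1 to 18, open triangles spots in blocks 19 to 36, and the dotted line is the detection minimum of 30. The 5p circles and triangles part on control replicates 1 and 3, FA 1 day replicate 2 and FA 7 days replicate 1, where they average 161 against 1178.

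When the first print set (blocks 1 to 18) and the second (blocks 19 to 36) were normalized apart, the difference of miR-151-5p after 1 day was 1.34 ± 0.45 (SE) in the first and 0.21 ± 0.28 in the second. In the first set the arm stood at 8.32, 8.95 and 7.99 on control replicates 1, 2 and 3 and at 9.43, 10.55 and 9.30 on FA 1 day replicates 1, 2 and 4. In the second set it stood at 9.18, 9.02 and 9.39 and at 9.72, 8.91 and 9.59 on the same arrays. The groups did not overlap in the first set and overlapped in the second, where FA 1 day replicate 2 was below all 3 controls. The gap of 1.13 between the sets was reached or passed by 6 of 462 probes (1.3%), with a median gap of 0.28 over all of them.

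The later difference between the exposures was split in the same way. From 1 day to 7 days miR-151-5p differed by -1.35 ± 0.45 in the first set and by -0.027 ± 0.279 in the second. By contrast, the difference of miR-151-3p from control after 7 days was 0.57 ± 0.21 in the first set and 0.57 ± 0.16 in the second, with no overlap in either. On the second set miR-151-3p stood at 7.26, 7.15 and 7.26 on control replicates 1, 2 and 3 and at 7.69, 7.88 and 7.81 on FA 7 days replicates 1, 2 and 3. Without the block centring described further on, the 3p arm was thus as far above control in one print set as in the other. With it, the difference was 0.07 in the first set and 0.41 in the second. Without centring, the difference of miR-151-3p after 1 day was 0.30 ± 0.21 in the first set, without overlap, and -0.058 ± 0.163 in the second, with overlap. From 1 day to 7 days it was 0.26 ± 0.21 in the first set, with overlap, and 0.63 ± 0.16 in the second, without overlap.

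Other probes printed beside the 5p arm showed gaps of the same sign. Over the 30 other tested probes of blocks 2 and 20, the median of the second set minus the first was 0.52, 0.47 and 0.41 (log2) on control replicates 1, 2 and 3. It was 0.03, -0.66 and 0.14 on FA 1 day replicates 1, 2 and 4, and 1.59, 0.22 and 0.45 on FA 7 days replicates 1, 2 and 3. For miR-151-5p itself the gap was 0.86, 0.07 and 1.41 in control, 0.29, -1.63 and 0.29 after 1 day, and 2.01, 0.29 and 0.63 after 7 days. The arm thus went the way of its block neighbours on each array, and further than their median on all but control replicate 2.

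In block 2, these 30 neighbours had a median log2 difference of 0.43 after 1 day, 26 of them above 0, and in block 20 a median of -0.25, with 7 above 0. From 1 day to 7 days their median in block 2 was -0.75, with 0 of 30 above 0, and in block 20 it was 0.30. Over all tested probes the medians after 1 day were -0.00 in the first set and 0.08 in the second. Of the 30 neighbours, 1 lay as far above control in block 2 as miR-151-5p, and 4 did so in block 20. Near miR-151-3p, the 24 other tested probes of blocks 4 and 22 had medians of 0.29 and 0.23 after 7 days, with 20 and 17 of them above 0. Of these, 8 in block 4 and 6 in block 22 lay at least as far above control as the arm did.

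**Figure D4:**
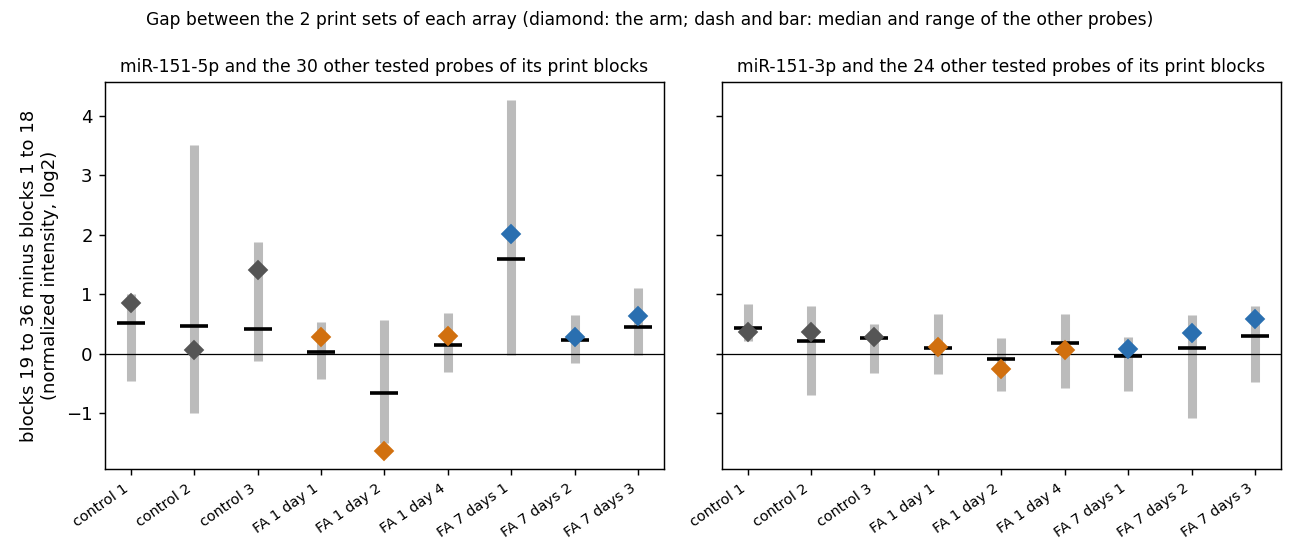
Second print set minus first (normalized log2) on each array for miR-151-5p with the 30 other tested probes of blocks 2 and 20 (left), and for miR-151-3p with the 24 of blocks 4 and 22 (right); diamonds are the arms, dashes the median and grey bars the range of the other probes. On FA 1 day replicate 2 the 5p arm (-1.63) and the median of its neighbours (-0.66) are both below 0, and on FA 7 days replicate 1 both are far above it (2.01 and 1.59).

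An alternative chosen after seeing these values centred every print block on each array by the median deviation of its tested probes, and averaged both sets. miR-151-5p then stood at 8.83, 8.84 and 8.83 on control replicates 1, 2 and 3 and at 9.46, 9.60 and 9.37 on FA 1 day replicates 1, 2 and 4. Its difference after 1 day was 0.64 ± 0.32 (SE), close to the 0.68 without centring, and the groups did not overlap. By set, the centred difference was 0.97 in the first and 0.31 in the second, where the groups overlapped.

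On FA 7 days replicates 1, 2 and 3 the centred miR-151-5p stood at 9.35, 9.39 and 8.10. Replicates 1 and 2 were thus above all 3 controls and close to the lowest FA 1 day array (9.37), and replicate 3, which stands apart, was below all other arrays. With replicate 3 left out, the centred difference from control after 7 days was 0.53 ± 0.16 and that from 1 day -0.11 ± 0.16. Between the exposures the 5p arm then differed by less than its error.

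For miR-151-3p the centred values were 7.25, 7.28 and 7.15 on control replicates 1, 2 and 3 and 7.48, 7.55 and 7.36 on FA 7 days replicates 1, 2 and 3. Its difference after 7 days was 0.24 ± 0.16, under that without centring by more than 1.5 times, and still without overlap. By set it was 0.07 in the first, where the groups overlapped, and 0.41 in the second, where they did not. The change of the arm difference from control to 7 days was -0.13 with centring, and 0.24 with FA 7 days replicate 3 left out as well, so its sign turned. From 1 day to 7 days it was -0.77 and -0.40. The part of print position in either arm's difference was not tested beyond these values.

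**Figure D5:**
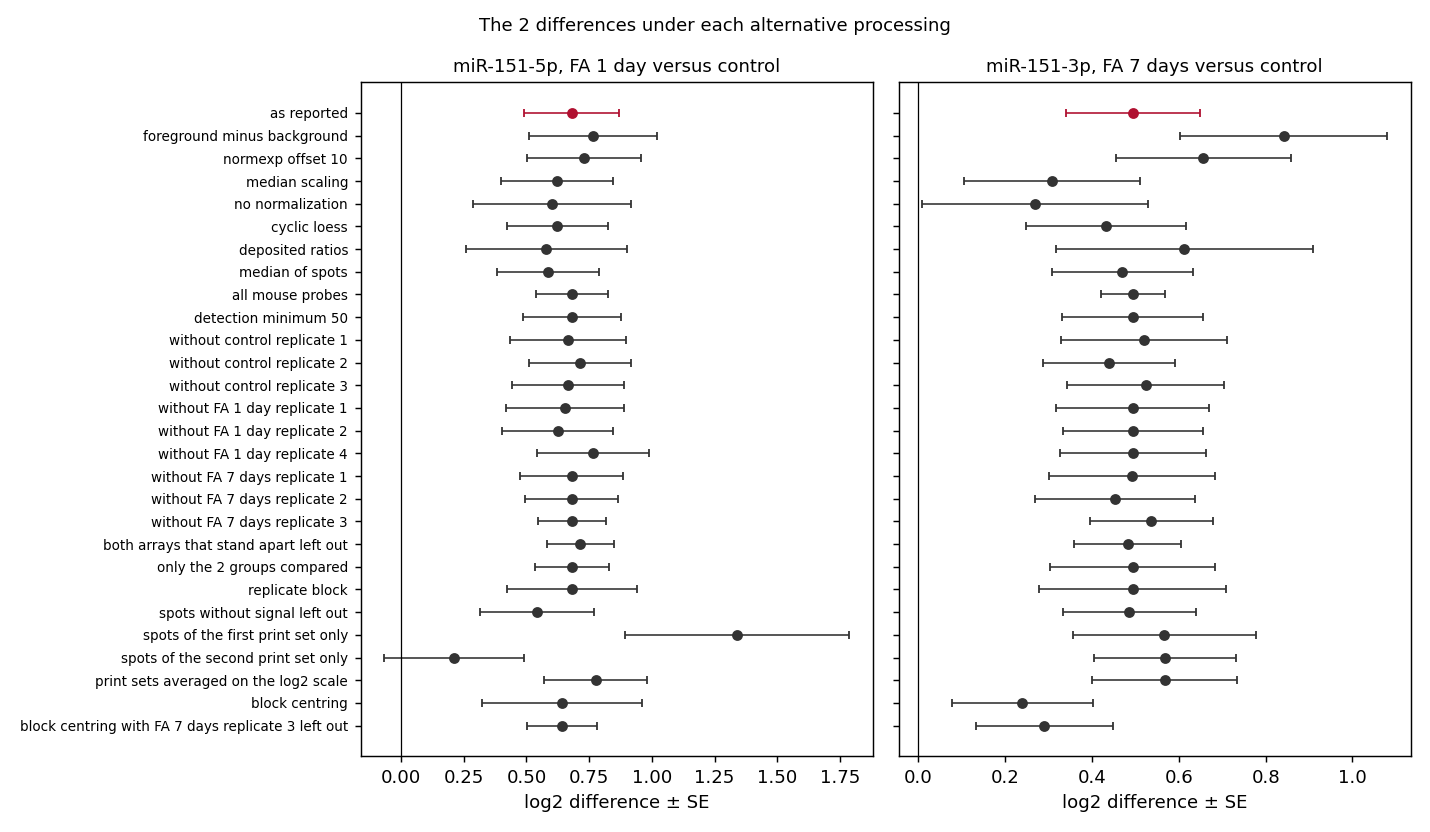
Log2 difference ± SE (horizontal) of miR-151-5p after 1 day (left) and of miR-151-3p after 7 days (right), as reported (red) and under each alternative. All points are above 0, though some alternatives, such as leaving out an array of the group not compared, could not move a difference. The arms were chosen on these differences, so nothing is read from the shared sign. The 5p difference ranges from 0.21 to 1.34, set by the separate print sets, and the 3p difference from 0.24 with block centring to 0.84 with plain background subtraction.

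The size of the 3p difference after 7 days varied with the background correction and with the normalization. With the table's own foreground minus background, miR-151-3p differed by 0.84 ± 0.24 after 7 days, against 0.49 with the offset of 50, which shrinks log2 differences of dim probes. With median scaling it differed by 0.31 and without normalization by 0.27. Without normalization, the median of all tested probes moved by -0.11 after 1 day and by -0.09 after 7 days, and relative to it miR-151-3p lay 0.36 higher after 7 days. Relative to the same medians miR-151-5p lay 0.71 higher after 1 day.

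The groups overlapped for all 3 tested arms of the related hairpins, in each comparison. miR-708-5p, whose probe was bright, stood at 10.93, 11.35 and 11.25 on control replicates 1, 2 and 3 and at 11.29, 11.16 and 11.19 on FA 1 day replicates 1, 2 and 4. On FA 7 days replicates 1, 2 and 3 it stood at 11.29, 11.19 and 9.97, a spread set by replicate 3. Its log2 difference was 0.03 ± 0.33 (SE) after 1 day and -0.36 ± 0.33 after 7 days.

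miR-708-3p had means of 6.93 ± 0.27 in control, 7.32 ± 0.09 after 1 day and 7.23 ± 0.12 after 7 days (SD, n = 3 each). It differed from control by 0.39 ± 0.19 and 0.30 ± 0.19 (SE), with overlap through control replicate 3 (7.23). miR-28-5p was detected on 7 of 9 arrays, missing on control replicate 2 and FA 7 days replicate 3, and had means of 6.88 ± 0.58, 7.31 ± 0.05 and 7.47 ± 0.59. Its differences of 0.43 ± 0.35 and 0.59 ± 0.35 came with overlapping groups. After 7 days the overlap came through FA 7 days replicate 3 (6.80), which stands apart. Replicates 1 and 2 (7.85 and 7.77) lay above the highest control (7.32). miR-28-3p was detected on 0 of 9 arrays and not tested.

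By Pearson correlation over the 9 arrays, the probes most like miR-151-5p among 460 were miR-872-3p (0.96), miR-144-5p (0.94), miR-339-5p (0.88) and miR-199b-5p (0.88). Their Spearman correlations were 0.98, 0.93, 0.86 and 0.87. miR-872-3p, in blocks 10 and 28, also led without both arrays that stand apart (Pearson 0.95). Its means were 8.18 ± 0.08 in control, 8.55 ± 0.14 after 1 day and 8.23 ± 0.20 after 7 days (SD, n = 3 each). miR-144-5p comes from a gene of red blood cells and had 6.28 ± 0.18, 7.15 ± 0.27 and 6.55 ± 0.41, but it was detected on only 5 arrays. miR-199b-5p, known from mesenchymal cells, had 6.39 ± 0.11, 7.11 ± 0.39 and 6.53 ± 0.06 and is printed in blocks 2 and 20 like miR-151-5p. Its control and 7-day levels lay close to those of miR-28-3p (6.22 to 6.47), which was never detected. The filter admits a probe through 1 group alone, so nothing is read from the likeness of miR-144-5p or miR-199b-5p.

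Most like miR-151-3p were miR-1843-5p (0.93, on a probe that also names miR-1843b-5p), miR-7b-5p (0.85), miR-146b-5p (0.85) and miR-700-3p (0.85), with Spearman correlations of 0.90, 0.78, 0.73 and 0.92. miR-146b-5p, which restrains innate immune signalling, had means of 8.77 ± 0.47 in control, 8.79 ± 0.18 after 1 day and 9.54 ± 0.05 after 7 days, and shares blocks 4 and 22 with the 3p arm. miR-7b-5p, found in hypothalamic and other neurons, had 6.99 ± 0.44, 6.95 ± 0.16 and 7.72 ± 0.18. Without both arrays that stand apart, miR-1843-5p ranked 4 and the others 22 to 27. These likenesses are descriptions, and all points share the arrays and their normalization.

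Marker miRNAs of other cell types were summed per list on each array, as the log2 of the sum. After 1 day, when miR-151-5p was high, 3 of 8 lists lay above control without overlap. Of single tested probes, 10.6% did so. The vascular list ran from 8.86 to 11.67 in control and from 11.80 to 11.94 after 1 day, with 1 of its 2 members detected on all arrays. The olfactory-lineage list (3 of 3) ran from 14.31 to 14.51 and from 14.51 to 14.59, apart only past the rounding, and the surface epithelium list (1 of 2) from 7.88 to 8.03 and from 8.18 to 8.97. The vascular members miR-126-3p and miR-126-5p differed by 1.32 and 0.81 after 1 day. Olfactory-lineage members went different ways: miR-200b-3p by 0.60, miR-200a-3p by 0.07 and miR-429-3p by -0.23. In the surface epithelium list miR-205-5p differed by 1.03 and miR-203-3p by 0.15. After 7 days, when miR-151-3p was high, the surface epithelium list also lay above control (8.28 to 8.52), as 8.87% of single tested probes did. Where miR-151-5p was lower after 7 days than after 1 day, so was the red blood cell list, with 2 of 3 members detected on all arrays (12.18 to 12.38 against 12.43 to 13.06). Of single tested probes, 8.23% lay lower without overlap in that comparison. Against control the red blood cell list overlapped after 1 day and after 7 days. After 1 day miR-451 differed from control by -0.14, miR-144-3p by 0.93 and miR-144-5p by 0.86. From 1 day to 7 days miR-144-3p differed by -1.17 and miR-144-5p by -0.60. The value of miR-451, the brightest member, is not given for that comparison, so whether all members moved alike is not shown. miR-144-5p is also among the probes most like miR-151-5p. In none of these lists was a member at 0 on every array. The part of these cells in the values of miR-151 was not tested. The neuron, oligodendrocyte, myeloid and muscle lists overlapped in all 3 comparisons. The neuron sum was dominated by its brightest markers, miR-124-3p and miR-9-3p. After quantile normalization miR-124-3p differed by 0 in each comparison, so nothing is read from the overlap of that list.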

How the data were processed

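The authors deposited foreground intensity and foreground minus background intensity for 12312 spots of 2673 probes, per the file headers. The scanner is not given in the sources used here. RNA was labelled with the dye Hy3, per the labels' protocols. The authors' second deposited table, a ratio, matched within 1% the median spot of each probe divided by 1 factor per array, for 100% of its values; its column medians run from 0.0196 to 0.16. All per-sample columns were matched to samples by name.

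Spots were corrected with normexp (offset 50; R 4.3.3, limma 3.58.1), averaged per probe, quantile normalized over the 1084 miRNA probes and put on the log2 scale, which hides any shift shared by most miRNAs. Tested were the 462 mouse probes with a foreground minus background of at least 30 on every array of at least 1 group. A group-means model was fitted to all 9 arrays with limma (lmFit, eBayes), two-sided, Benjamini-Hochberg over 462 probes, threshold 0.05. The fit was tested on simulated data with independent noise, which held no gaps between print blocks and no arrays that stand apart. No pair of arrays shared the foreground of more than 10.7% of spots, so all were kept. At the median standard error of 0.27 (log2) the number of arrays limits the precision.

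The members and lists were chosen with earlier results of these data known, and the print-block alternatives after seeing the data. Named are the arms, the miR-28 and miR-708 relatives, the 4 probes most correlated with each arm, the 3 hairpins with the widest arm change per comparison, and markers. A search for other miRNAs sharing 10 or more bases with the arms was not run, as the sequences of the arms were not at hand. Slides and scan days are not given, so no such batch was tested.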

Additional observations from a re-analysis of the deposited data

How the results depend on the processing

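The log2 difference of miR-151-5p after 1 day (0.68) and that of miR-151-3p after 7 days (0.49) kept their sign under all 27 alternatives, from 0.21 to 1.34 and from 0.24 to 0.84. Some of these could not move a difference, such as another probe filter or leaving out an array of the group not compared. Since the arms were chosen on these differences, nothing is read from the kept sign. The lowest value of miR-151-5p, 0.21 ± 0.28 (SE), was smaller than its error. In print blocks 1 to 18 alone miR-151-5p differed by 1.34 after 1 day and -1.35 between the exposures, and in blocks 19 to 36 by 0.21 and -0.027. Without both arrays that stand apart it differed by 0.28 after 7 days. With block centring and without FA 7 days replicate 3 it differed by 0.53 after 7 days and by -0.11 between the exposures.

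For miR-151-3p, plain foreground minus background gave 0.21 (1 day), 0.84 (7 days) and 0.63 (between the exposures). The offset of 10 gave 0.66 and 0.50 and the deposited ratios 0.61 and 0.57 for the last 2. Median scaling gave -0.11 and 0.31 for the first 2, and no normalization -0.13 and 0.27. Blocks 1 to 18 gave 0.30 after 1 day and 0.26 between the exposures, and blocks 19 to 36 gave -0.058 and 0.63. Block centring gave -0.0026, 0.24 and 0.24, and -0.0026, 0.29 and 0.29 without FA 7 days replicate 3.

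The change of the arm difference after 1 day was 0.73 with median scaling or no normalization, 1.03 in blocks 1 to 18 and 0.27 in blocks 19 to 36. After 7 days it was -0.74 with foreground minus background, -0.56 with the offset of 10, -0.18 with median scaling or no normalization and -0.20 without both arrays that stand apart. It was -0.58 in blocks 1 to 18, -0.13 with block centring and 0.24 with centring and without FA 7 days replicate 3. Between the exposures it was -1.30 with foreground minus background, -1.14 with the offset of 10, -1.61 in blocks 1 to 18, -0.65 in blocks 19 to 36 and -1.13 with both sets averaged. Centring gave -0.77, and -0.40 without FA 7 days replicate 3. The cause of these shifts was not tested.

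Leaving out single arrays gave 0.62 to 0.77, -0.03 to 0.24 and -0.71 to -0.44 for miR-151-5p in the 3 comparisons, and 0.06 to 0.16, 0.44 to 0.54 and 0.33 to 0.43 for miR-151-3p. For the arm difference it gave 0.52 to 0.66, -0.48 to -0.29 and -1.05 to -0.86. The count of probes past limma's threshold ranged from 0 to 1 against control; without control replicate 3 miR-3104-3p passed (-2.18, adjusted p = 0.0248, and -2.09, adjusted p = 0.0335, by limma). With centring and without FA 7 days replicate 3, 1 probe passed after 1 day, miR-20a-5p (1.10, adjusted p = 0.0423, by limma). These probes are named after their values were seen.

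Deviations of same-numbered arrays from their group means had correlations of -0.58 to 0.33, not over 0.1 in every pair, and the labels name no pairing, so the numbers were not taken to pair the arrays. With the replicate block miR-151-5p differed by 0.68, 0.09 and -0.59, miR-151-3p by 0.15, 0.49 and 0.34, and the arm difference by 0.53, -0.41 and -0.93, with 0 probes called. The dim signal of miR-151-3p and 3 arrays a group limit what can be told apart.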
